A study of Mus musculus with 9 samples.

Results

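The 6 genes named for the C/EBP family, Cebpa, Cebpb, Cebpd, Cebpe, Cebpg and Cebpz, were read from a table of FPKM values, in which the reads on a gene are divided by gene length and library size. They were taken by gene name, and all 6 were found once each among the 54532 genes of the table. All 6 were also among the 12746 genes that reached 1 FPKM in at least 3 of the 9 samples and were therefore tested. Bulk RNA-seq had been done on dendritic cells (DCs) from mouse spleens, in 3 groups of 3 samples. N-mDCs were mature conventional DCs of normal mice that had received no treatment. T-DCs were CD11c+MHCIIlo cells, labelled immature DCs, and T-mDCs were mature conventional DCs, both from mice with T cell acute lymphoblastic leukemia (T-ALL). The mice were females of 6 to 8 weeks on a C57BL/6J or C57B6.SJL background. The leukemia came from GFP+ cells transformed by a retrovirus with the intracellular domain of Notch1, transplanted into hosts that were not irradiated. DCs were sorted on day 15. The gate for T-DCs left out GFP+, CD3+ and NK1.1+ cells among others, red blood cells had been lysed before the sort, and no granulocyte marker was named for it.

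C/EBP proteins are basic leucine zipper transcription factors that bind DNA as dimers with each other or with related factors. C/EBPα, encoded by Cebpa, is needed to form granulocyte and monocyte progenitors, and C/EBPβ drives emergency granulopoiesis and inflammatory genes of macrophages. C/EBPδ is induced in inflammation, C/EBPε is needed for the last steps of granulocyte formation and for the genes of the specific granules, and C/EBPγ has no activation domain of its own and pairs with other C/EBP proteins or with ATF4. CEBPZ shares the name because it binds CCAAT sequences, but it is no leucine zipper protein and works in ribosome assembly.

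In genome build GRCm38, Cebpg (ENSMUSG00000056216, chr7:35046422-35056573, minus strand) and Cebpa (ENSMUSG00000034957, chr7:35119293-35121928, plus strand) lie next to each other on chromosome 7. The stretch between them has 62719 bases and 4 annotated genes. Cebpb (ENSMUSG00000056501) is at chr2:167688915-167690418 on the plus strand and Cebpd (ENSMUSG00000071637) at chr16:15887286-15891031 on the plus strand. Cebpe (ENSMUSG00000052435) is at chr14:54710360-54712174 and Cebpz (ENSMUSG00000024081) at chr17:78919006-78937066, both on the minus strand. The 250 bases before the start sites of Cebpa, Cebpb and Cebpg, 3 of the 6 members, were taken from RefSeq (build GRCm38.p6). They are shown because Cebpa and Cebpg are neighbours of which only Cebpg was called, and because Cebpb had the highest level. Capitals mark letters of the motifs searched on both strands. The windows are chr7:35119043-35119292 (plus strand) for Cebpa, chr2:167688665-167688914 (plus strand) for Cebpb and chr7:35056567-35056816 (minus strand) for Cebpg.
Cebpa: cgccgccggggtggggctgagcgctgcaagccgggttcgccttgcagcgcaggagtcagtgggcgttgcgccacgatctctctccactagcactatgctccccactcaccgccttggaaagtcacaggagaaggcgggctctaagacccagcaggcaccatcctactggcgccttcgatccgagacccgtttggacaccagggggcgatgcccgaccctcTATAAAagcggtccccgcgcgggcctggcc
Cebpb: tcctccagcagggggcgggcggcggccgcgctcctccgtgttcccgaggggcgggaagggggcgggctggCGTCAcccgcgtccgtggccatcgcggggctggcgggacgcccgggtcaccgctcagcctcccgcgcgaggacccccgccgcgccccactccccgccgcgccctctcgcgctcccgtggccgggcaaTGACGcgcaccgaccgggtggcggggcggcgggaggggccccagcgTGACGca
Cebpg: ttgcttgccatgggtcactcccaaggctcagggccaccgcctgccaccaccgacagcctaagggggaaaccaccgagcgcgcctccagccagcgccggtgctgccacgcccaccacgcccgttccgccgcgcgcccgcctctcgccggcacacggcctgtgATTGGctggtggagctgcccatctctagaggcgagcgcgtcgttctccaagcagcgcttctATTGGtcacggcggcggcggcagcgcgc
The Cebpa window held a TATA box, TATAAA, from -30 to -25, counted from the start site, and 12.4% of 32851 mouse windows of this length hold that motif. In the Cebpb window, the letters TGACG of the core of a cAMP response element stood at -180 on the minus strand and at -53 and -7 on the plus strand, a motif found in 17.8% of the windows. The Cebpg window had the CCAAT box on the minus strand, read as ATTGG, at -89 and -28, against 33.8% of windows with at least 1 such box. None of the 3 windows held the C/EBP site TTGCNNAA (9.56% of windows) or the C/EBP-ATF site TGATGNAA (3.45%). GC content was 66.4% for Cebpa, 81.6% for Cebpb and 70.8% for Cebpg, against a median of 52.4% over all windows. No binding was measured here.

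Total reads on genes ranged from 15360815 to 18440913 per sample, so the depth was alike in all 9. T-DC samples 2 and 3 stood apart from T-DC sample 1. The summed FPKM of 8 erythroid genes such as Hba-a1 was 607 in T-DC sample 1, 58098 in T-DC sample 2 and 42452 in T-DC sample 3. It was between 99.4 and 5359 in N-mDCs, the highest being N-mDC sample 2, and between 15.1 and 180 in T-mDCs. In T-DCs vs. T-mDCs, limma called 8 of the 8 higher (median log2 fold change 7.03), beside 5.44% of all tested genes. In T-DCs vs. N-mDCs it called 1 higher, Car1, beside 6.1%. Of 10 conventional DC genes, 10 in every sample but T-DC sample 3, with 9, reached 1 FPKM. Their sum was 190 to 711 FPKM in T-DCs, 765 to 888 in N-mDCs and 744 to 833 in T-mDCs. In T-DCs vs. N-mDCs, limma called 7 of the 10 lower (median log2 fold change -2.24), beside 10.3% of all tested genes. The likest samples of a group were T-mDC samples 2 and 3, whose chi-square per gene was 1.85 where other pairs had 8.11 or more. Counting noise alone gives 1, but the excess does not show that they came from separate mice. If they did not, the spread within T-mDCs is understated. The labels do not say whether samples came from separate mice, so the p-values measure the spread between these samples only. In such bulk samples, fewer cells of a type and less RNA per cell cannot be told apart.

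Cebpg was higher in T-DCs than in both groups of mature DCs, and it was the only member called by the test in any of the 3 comparisons. The 3 groups were fitted together by limma, with FPKM + 1 on a log2 scale, and genes with a Benjamini-Hochberg adjusted p under 0.05 over all tested genes were called. Of the 6 members, 1 was called in T-DCs vs. N-mDCs, where 16.4% of all tested genes were called, 6.1% as higher and 10.3% as lower. For T-DCs vs. T-mDCs, 1 of the 6 members was called, beside 14.2% of all tested genes, 5.44% as higher and 8.79% as lower. The comparison of T-mDCs vs. N-mDCs called 0 members by limma, with 0 at an unadjusted p under 0.05 and 0 by voom on the reads, beside 2.21% of all tested genes, 0.69% as higher and 1.52% as lower. At an unadjusted p under 0.05, there was 1 member in T-DCs vs. N-mDCs and there were 4 in T-DCs vs. T-mDCs. Samples of the groups did not overlap for 2 members (Cebpb and Cebpg) in the first comparison, 3 (Cebpb, Cebpe and Cebpg) in the second and 1 (Cebpe) in the third, where 32.4%, 34.9% and 35% of all tested genes did not overlap. These counts are near those of all tested genes, so nothing is read from them about the family. The median log2 fold change of the 6 members in these comparisons was 0.618, 0.997 and -0.560, where the medians of all tested genes were 0.0529, 0.0684 and 0.0272. The comparisons share samples and are not independent of each other.

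**Figure D1:**
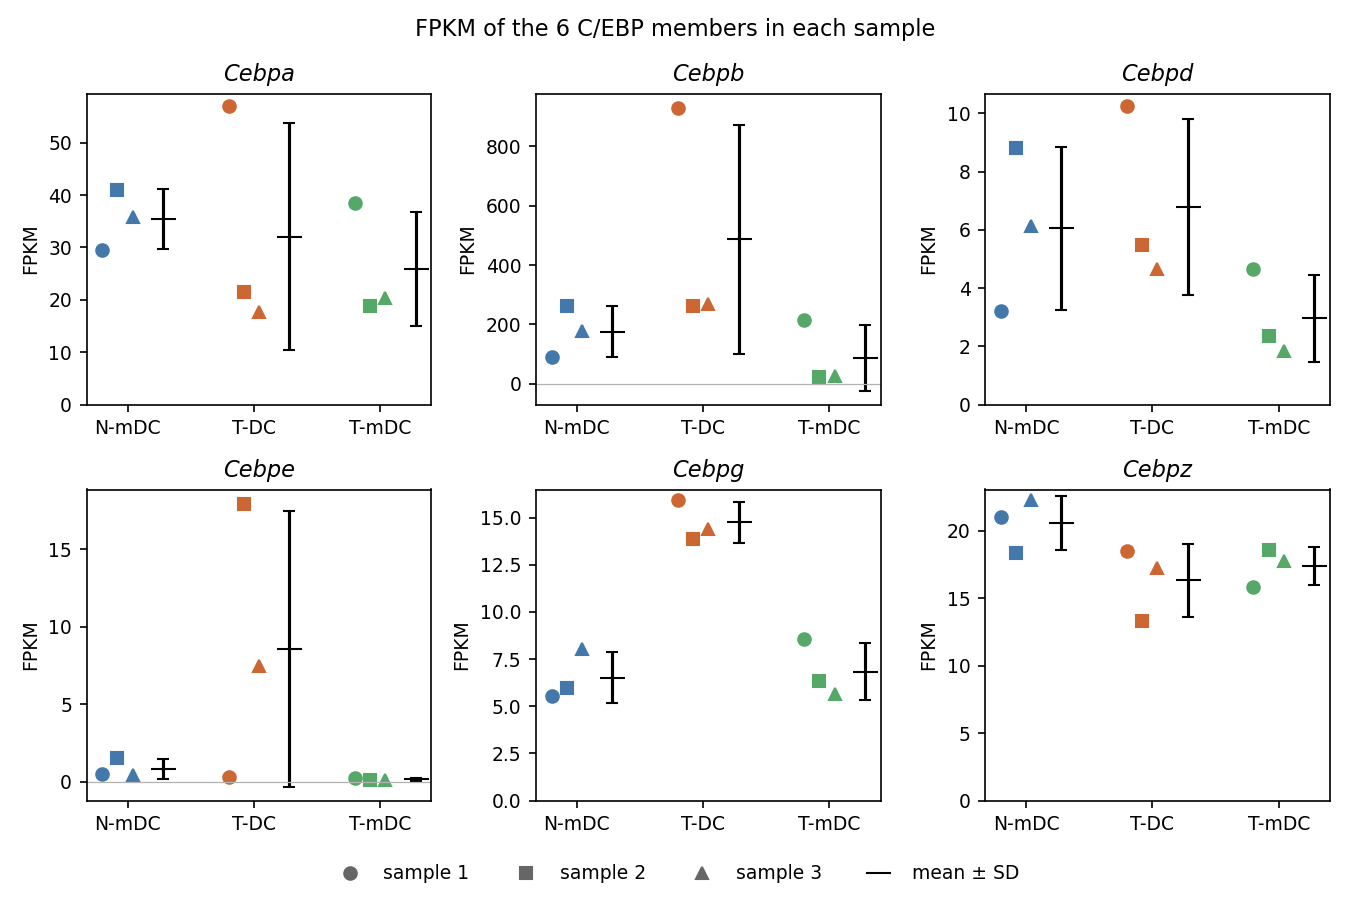
FPKM (vertical axes, linear and starting at 0 except where the SD reaches below it) of the 6 C/EBP members in N-mDC, T-DC and T-mDC samples 1 (circles), 2 (squares) and 3 (triangles), with bars for the mean ± SD (n = 3). The 3 T-DC samples of Cebpg sit between 13.9 and 16.0 FPKM, above all others, while Cebpe is high only in T-DC samples 2 (17.9) and 3 (7.48).

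In N-mDCs, the order of mean FPKM was Cebpb, Cebpa, Cebpz, Cebpg, Cebpd and Cebpe. The samples of neighbours in this order did not overlap, except for Cebpg (6.52 ± 1.36 FPKM, SD, n = 3) and Cebpd (6.06 ± 2.80). T-mDCs had the same order of means, and there only Cebpb (87.9 ± 111 FPKM) and Cebpa (25.9 ± 10.9) overlapped as neighbours. In T-DCs, Cebpb stood above all other members in each sample, and all lower neighbours in the order overlapped in their ranges.

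Cebpa, the factor of granulocyte and monocyte progenitors, was measured at 29.6, 40.9 and 35.8 FPKM in N-mDC samples 1 to 3. T-DC samples 1 to 3 had 57.1, 21.5 and 17.7 FPKM, and T-mDC samples 1 to 3 had 38.5, 18.9 and 20.4 FPKM. The groups overlapped, and the highest and the lowest of the 9 samples were both T-DCs. The log2 fold change was -0.32 ± 0.44 (SE) in T-DCs vs. N-mDCs (limma, adjusted p = 0.637). It was 0.18 ± 0.44 in T-DCs vs. T-mDCs (adjusted p = 0.808) and -0.50 ± 0.44 in T-mDCs vs. N-mDCs (adjusted p = 0.609). A difference was not detectable with this spread, and the sign against T-mDCs turned to -0.14 with values rescaled to TPM and to -0.0387 with quantile normalization. The noncoding gene Gm45091 overlaps Cebpa on the other strand and was at 0 to 0.888 FPKM.

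Cebpb, encoding the factor of emergency granulopoiesis and inflammatory macrophages, was the most abundant member per kilobase in each of the 9 samples. Its level was 88.8, 261 and 178 FPKM in N-mDC samples 1 to 3. T-DC samples 1 to 3 had 931, 262 and 267 FPKM, and T-mDC samples 1 to 3 had 216, 22.6 and 25.3 FPKM. T-DC sample 1 was far above the other T-DC samples, and T-mDC sample 1 far above the other T-mDC samples. All T-DC samples were above all N-mDC samples, though T-DC sample 2 and N-mDC sample 2 differed by less than their counting error (95% exact Poisson intervals of 255 to 268 and of 255 to 267 FPKM). The log2 fold change in T-DCs vs. N-mDCs was 1.32 ± 0.89 (limma, adjusted p = 0.315), and without T-DC sample 1 it was 0.72 (adjusted p = 0.560).

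All T-DC samples also had more Cebpb than all T-mDC samples, with a log2 fold change of 2.98 ± 0.89 just short of the threshold (limma, adjusted p = 0.0571). Without T-mDC sample 1 it was 4.02 and passed (adjusted p = 0.00607). Over all alternatives its limma adjusted p ranged from 1.13e-05 with array weights to 0.463 with an erythroid covariate. In this comparison, those fits called 9923 and 0 of 12746 genes. Between T-mDCs and N-mDCs, which overlapped, the log2 fold change was -1.66 ± 0.89 (adjusted p = 0.387).

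The Cebpb gene is a single exon of 1504 bases, of which bases 597 to 908 are also an exon of Tmem189 on the other strand. The sources used here do not say whether reads were counted by strand, so reads in that stretch cannot be told apart. Tmem189 was at 11.6 to 21.95 FPKM in all 9 samples, with a log2 fold change of -0.23 in T-DCs vs. N-mDCs (limma, adjusted p = 0.482). The primers listed for the study's own qRT-PCR of Cebpb are shown because the product between them covers part of that stretch.
Forward: gacaagctgagcgacgagta
Reverse: tgcttgaacaagttccgcag
They match bases 762 to 781 and, as the reverse complement, 939 to 958 of the transcript, inside the coding sequence (bases 108 to 995). Of the 197 bases between their outer ends, 147 lie in the Tmem189 exon. That exon ends at base 908, so the reverse primer site lies outside it, and annotated Tmem189 RNA lacks that site. The qRT-PCR values were not analysed here.

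Cebpd, the inflammation-induced member, was measured at 3.23, 8.82 and 6.13 FPKM in N-mDC samples 1 to 3. T-DC samples 1 to 3 had 10.2, 5.48 and 4.64 FPKM, and T-mDC samples 1 to 3 had 4.65, 2.36 and 1.86 FPKM. T-DC sample 1 was again the highest of all, and every T-DC sample but the third was above all T-mDC samples. T-DC sample 3 (4.64 FPKM) was just below T-mDC sample 1 (4.65). The log2 fold change was 0.16 ± 0.40 in T-DCs vs. N-mDCs (limma, adjusted p = 0.811), 0.97 ± 0.40 against T-mDCs (adjusted p = 0.141) and -0.82 ± 0.40 in T-mDCs vs. N-mDCs (adjusted p = 0.345). Across the 9 samples, log2(FPKM + 1) of Cebpd and of Cebpb had a Pearson r of 0.921, higher than that of any other pair of members, where the points share library and group. Part of Cebpd, 562 exonic bases, is shared with Spidr on the other strand, at 1.19 to 4.34 FPKM and called higher in T-DCs than in N-mDCs (log2 fold change 0.79, limma, adjusted p = 0.0322, called in 8 of 22 alternatives).

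Cebpe, the member of terminal granulocyte formation, was carried mainly by 2 libraries, T-DC samples 2 and 3. T-DC sample 2 had 345 reads on Cebpe (17.9 FPKM, 95% exact Poisson interval 16.1 to 19.9), and T-DC sample 3 had 141 reads (7.48 FPKM, 6.30 to 8.82). T-DC sample 1 had only 6 reads (0.270 FPKM, 0.0991 to 0.588). The level in T-DC sample 2 was thus 66.5 times that in T-DC sample 1, the widest range of any member in any group. N-mDC samples 1 to 3 had 10, 31 and 9 reads (0.515, 1.55 and 0.399 FPKM), and T-mDC samples 1 to 3 had 6, 2 and 2 reads (0.256, 0.0834 and 0.0876 FPKM). N-mDC sample 2, with an interval of 1.05 to 2.20 FPKM, was above the intervals of the other N-mDC samples, and these intervals cover counting error only. Cebpe reached 1 FPKM in T-DC samples 2 and 3 and N-mDC sample 2, and it entered the test through exactly these 3 samples.

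By group, Cebpe had 0.822 ± 0.634 FPKM in N-mDCs, 8.56 ± 8.88 in T-DCs and 0.142 ± 0.0985 in T-mDCs (SD, n = 3). T-DCs overlapped N-mDCs, because T-DC sample 1 was below all N-mDC samples, and the log2 fold change was 1.75 ± 0.82 (limma, adjusted p = 0.163). All T-DC samples were above all T-mDC samples, T-DC sample 1 and T-mDC sample 1 having 6 reads each, with a log2 fold change of 2.37 ± 0.82 (adjusted p = 0.0890). Neither passed the threshold. Without T-DC sample 1, both passed, at 2.85 against N-mDCs (adjusted p = 8.63e-04) and 3.48 against T-mDCs (adjusted p = 4.26e-04). That fit called 5030 and 4475 of 12746 genes in these comparisons, against 2096 and 1813 with all samples, so passing was not particular to Cebpe. With T-DC sample 1 as the only T-DC sample, the log2 fold changes were -0.47 (adjusted p = 0.481) and 0.16 (adjusted p = 0.848). All T-mDC samples were below all N-mDC samples, at -0.62 ± 0.82 (adjusted p = 0.747), with at most 31 reads in any of these 6 samples.

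Genes of granulocyte granules were high in the same 2 libraries. The 5 primary granule genes Mpo, Elane, Prtn3, Ctsg and Ms4a3, made by granulocyte precursors, summed to 215 FPKM in T-DC sample 2 and 84.7 in T-DC sample 3, with all 5 at 1 FPKM or more in both. They summed to 0.512 FPKM in T-DC sample 1, to 0.111, 15.9 and 3.07 in N-mDC samples 1 to 3, and to 0.153 to 0.435 in T-mDCs. N-mDC sample 2, which had the most Cebpe outside the T-DCs, also had the most of these genes outside the T-DCs. Elane, neutrophil elastase, had no read in N-mDC sample 1, T-DC sample 1 and T-mDC samples 1 and 3, and was at 83.2 and 32.9 FPKM in T-DC samples 2 and 3.

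The 8 specific and gelatinase granule genes, among them Ltf, Camp, Ngp and Lcn2, summed to 113, 2219 and 878 FPKM in T-DC samples 1 to 3. They were at 17.3 to 181 in N-mDCs and 9.90 to 30.8 in T-mDCs. Other genes of the list had another pattern, as Mmp9, gelatinase B, was at 12.9, 19.7 and 19.8 FPKM in N-mDC samples against 2.603, 17.1 and 6.55 in T-DC samples, and Mmp8 was highest in N-mDC sample 3 (4.72 FPKM, against 4.15 and 2.23 in T-DC samples 2 and 3). In T-DC sample 1, almost the whole sum was Chil3, a chitinase-like protein also made by macrophages, at 108 FPKM. The 5 mature neutrophil genes, with S100a8 and Ly6g among them, summed to 12.2, 2767 and 921 FPKM in T-DC samples 1 to 3, to 64.3 to 641 in N-mDCs and to 4.65 to 10.8 in T-mDCs. This sum was mostly S100a8 and S100a9. Cxcr2, a chemokine receptor of mature neutrophils, was instead lower in all T-DC samples (0.366, 3.01 and 1.94 FPKM) than in all N-mDC samples (3.08, 3.28 and 8.29), a difference that was not called (limma, adjusted p = 0.107). Retnlg was highest in N-mDC sample 3 (42.0 FPKM, against 34.1 and 19.7 in T-DC samples 2 and 3). No gene of the primary granule list was called by limma in any comparison. Chil3 (5.51) of the specific granule list and Retnlg (3.36) of the mature neutrophil list were called higher on the log2 scale in T-DCs vs. T-mDCs, and Cxcr2 (-2.31) of the latter was called lower in T-mDCs vs. N-mDCs. Their limma adjusted p was 0.0316, 0.0222 and 0.0357, and they were called in 13 of 23, 14 of 23 and 11 of 22 alternatives.

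The samples with Cebpe were also those with the most erythroid RNA, as the sums given above show. With the mean of the 8 erythroid genes as a covariate, the log2 fold change of Cebpe was -0.20 in T-DCs vs. N-mDCs (limma, adjusted p = 0.873) and -0.60 against T-mDCs (adjusted p = 0.747), a comparison in which this fit called 0 of 12746 genes. All 8 genes were called higher in T-DCs than in T-mDCs, so there the covariate and the group cannot be fully told apart. Lists of other blood cells were measured as well. The 7 eosinophil genes summed to 32.7 to 100.1 FPKM in N-mDCs, but T-DCs had 21.5 to 28.7 and T-mDCs 6.97 to 21.0. The largest part in N-mDCs was Ccr3. Against N-mDCs, limma called Ccr3 lower in T-DCs (log2 fold change -2.19, adjusted p = 0.0216) and in T-mDCs (-2.71, adjusted p = 0.0337). Of all tested genes, 10.3% and 1.52% were called lower there. Prg2 was at 3.66, 18.4 and 15.9 FPKM in T-DC samples 1 to 3 and at 2.06, 41.7 and 11.9 in N-mDC samples. It was not called in any comparison. The 6 basophil and mast cell genes stayed at or under 10.4 FPKM in sum, and 4 of them had no read in T-mDCs. The 8 genes of the T lineage, from which the leukemia comes, summed to 4.74 to 34.8 FPKM over all 9 samples. The part of neutrophil RNA in the values of Cebpe was not tested.

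**Figure D2:**
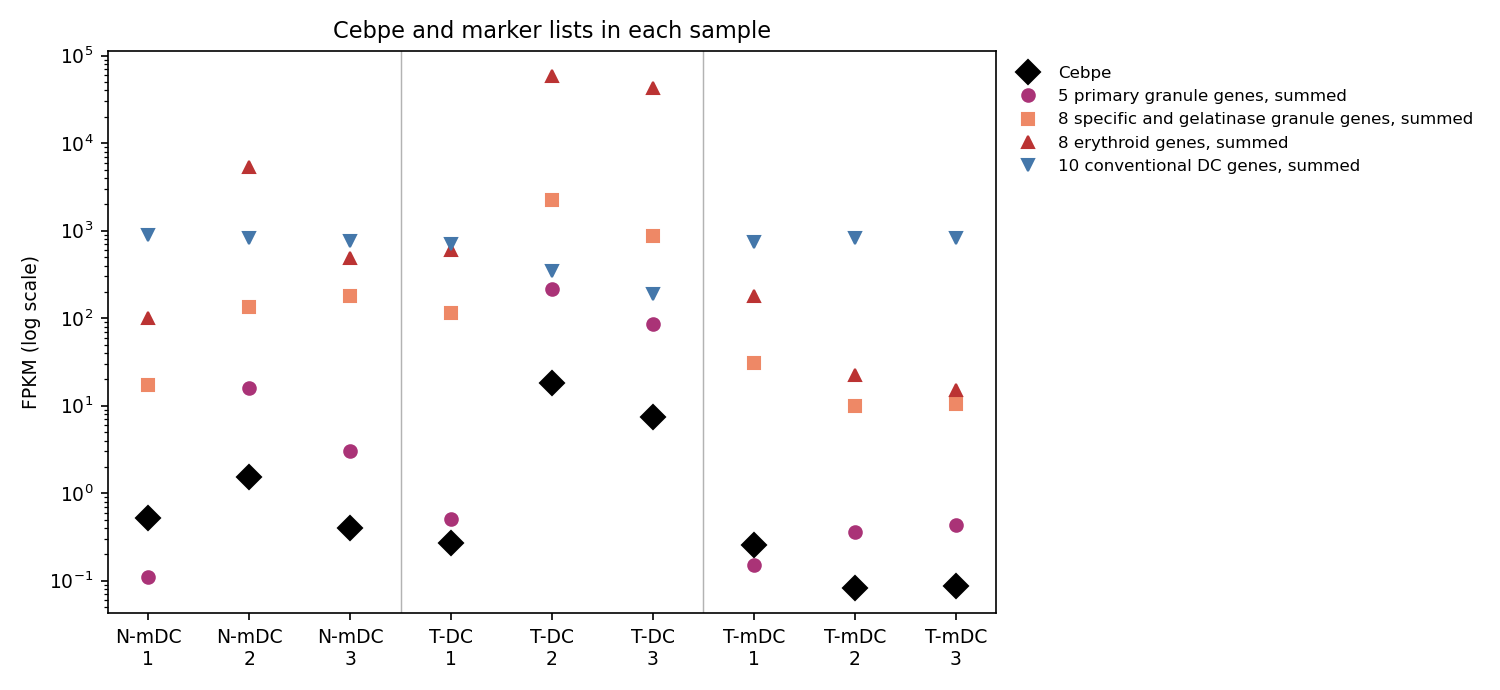
FPKM on a log scale of Cebpe (black diamonds) and summed FPKM of 5 primary granule, 8 specific and gelatinase granule, 8 erythroid and 10 conventional DC genes in each of the 9 samples. Cebpe and the granule sums are highest in T-DC samples 2 and 3, where Cebpe is at 17.9 and 7.48 FPKM.

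Cebpg, the partner of other C/EBP proteins and of ATF4, was at 5.54, 5.94 and 8.06 FPKM in N-mDC samples 1 to 3. T-DC samples 1 to 3 had 16.0, 13.9 and 14.4 FPKM, and T-mDC samples 1 to 3 had 8.55, 6.34 and 5.64 FPKM. All T-DC samples were above all others, with T-DC sample 1 the highest. The highest T-DC value was only 1.15 times the lowest, a narrower range than for any other member in any group. Mean levels were 6.52 ± 1.36 FPKM in N-mDCs, 14.7 ± 1.08 in T-DCs and 6.84 ± 1.52 in T-mDCs (SD, n = 3). Cebpg rose by 1.08 ± 0.20 on the log2 scale in T-DCs vs. N-mDCs (limma, adjusted p = 0.00946) and by 1.02 ± 0.20 against T-mDCs (adjusted p = 0.0128). T-mDCs and N-mDCs overlapped, with a log2 fold change of 0.06 ± 0.20 (adjusted p = 0.910).

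The call of Cebpg against N-mDCs was lost with the erythroid covariate (log2 fold change 1.08, limma, adjusted p = 0.0656) and with T-DC sample 1 as the only T-DC sample (1.19, adjusted p = 0.0591). Against T-mDCs it was lost with the same settings (1.01, adjusted p = 0.279, and 1.13, adjusted p = 0.0623), with TPM values (0.77, adjusted p = 0.0952), with T-mDC samples 2 and 3 as their mean (0.95, adjusted p = 0.0737) and without T-mDC sample 2 (0.98, adjusted p = 0.0728) or 3 (0.91, adjusted p = 0.0759). The fits with the T-mDC mean, without T-mDC sample 2 and without T-mDC sample 3 called 540, 543 and 541 of 12746 genes. The fit of all samples called 1813, so the loss of calls was not particular to Cebpg. The size of the Cebpg difference stayed between 0.77 and 1.22 on the log2 scale over all alternatives of both comparisons. Short annotated genes inside Cebpg, Gm44836, Gm45094 and Gm45095, were at 0.201 to 3.72 FPKM, and the part of Cebpg shared with their exons is at most 73 bases.

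Cebpz, the CCAAT-binding protein of ribosome assembly, was at 21.0, 18.3 and 22.3 FPKM in N-mDC samples 1 to 3. Values of 18.5, 13.3 and 17.2 FPKM were found in the T-DC samples and of 15.8, 18.6 and 17.7 FPKM in the T-mDC samples. The groups overlapped and lay close together. Its log2 fold changes were -0.32 ± 0.18 in T-DCs vs. N-mDCs (limma, adjusted p = 0.222), -0.09 ± 0.18 against T-mDCs (adjusted p = 0.748) and -0.23 ± 0.18 in T-mDCs vs. N-mDCs (adjusted p = 0.553). Ndufaf7, a mitochondrial gene that starts 70 bases from the Cebpz start on the other strand, was at 4.31 to 8.33 FPKM and was called higher in T-DCs than in T-mDCs (log2 fold change 0.60, limma, adjusted p = 0.0403, called in 7 of 23 alternatives). The small gene Cebpzos, which overlaps the end of Cebpz, was at 2.39 to 3.50 FPKM.

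**Figure D3:**
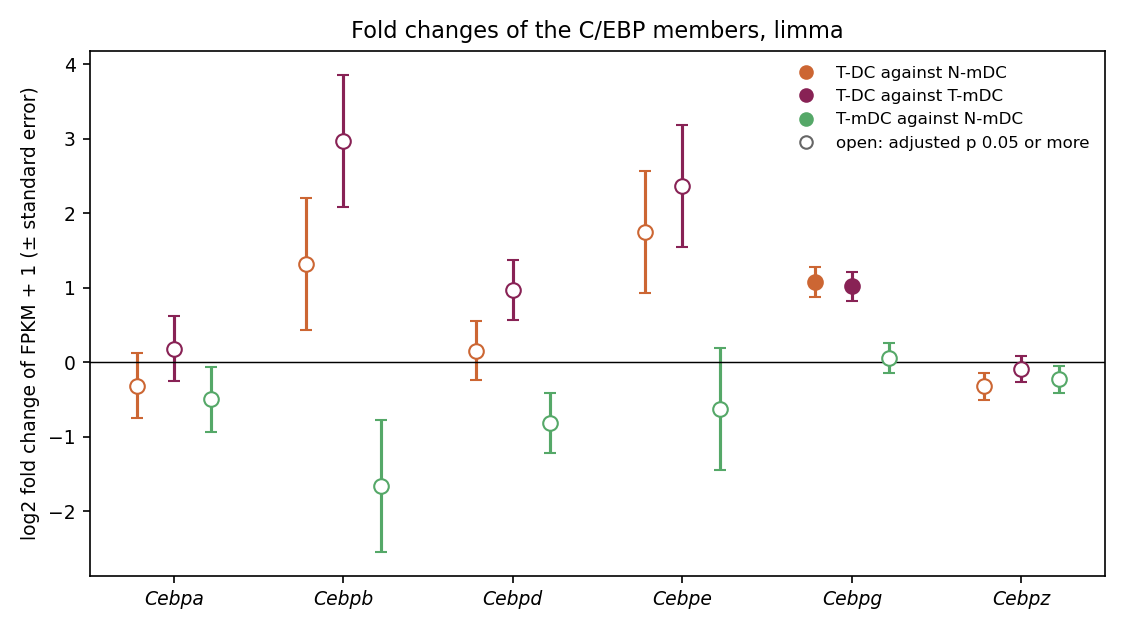
Log2 fold change of FPKM + 1 (vertical axis) with its standard error for the 6 members in T-DCs vs. N-mDCs, T-DCs vs. T-mDCs and T-mDCs vs. N-mDCs, from limma on 9 samples. Filled points, Cebpg at 1.08 and 1.02, have an adjusted p under 0.05, and open points do not.

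The makeup of the family was compared as the share of each member in the summed FPKM of the 5 leucine zipper members, leaving out Cebpz. Cebpb made up 69.6% to 82.0% of this sum in N-mDCs and 81.7% to 91.8% in T-DCs. It made up 80.6% in T-mDC sample 1 and 45.0% and 47.5% in T-mDC samples 2 and 3. Cebpa contributed 12.9% to 23.2% in N-mDCs and 14.4% to 38.3% in T-mDCs but 5.63% to 6.71% in T-DCs, so that T-DCs did not overlap the other groups. Cebpe made up 5.60% of the sum in T-DC sample 2 and 2.40% in T-DC sample 3, and at most 0.488% in any of the other 7 samples.

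**Figure D4:**
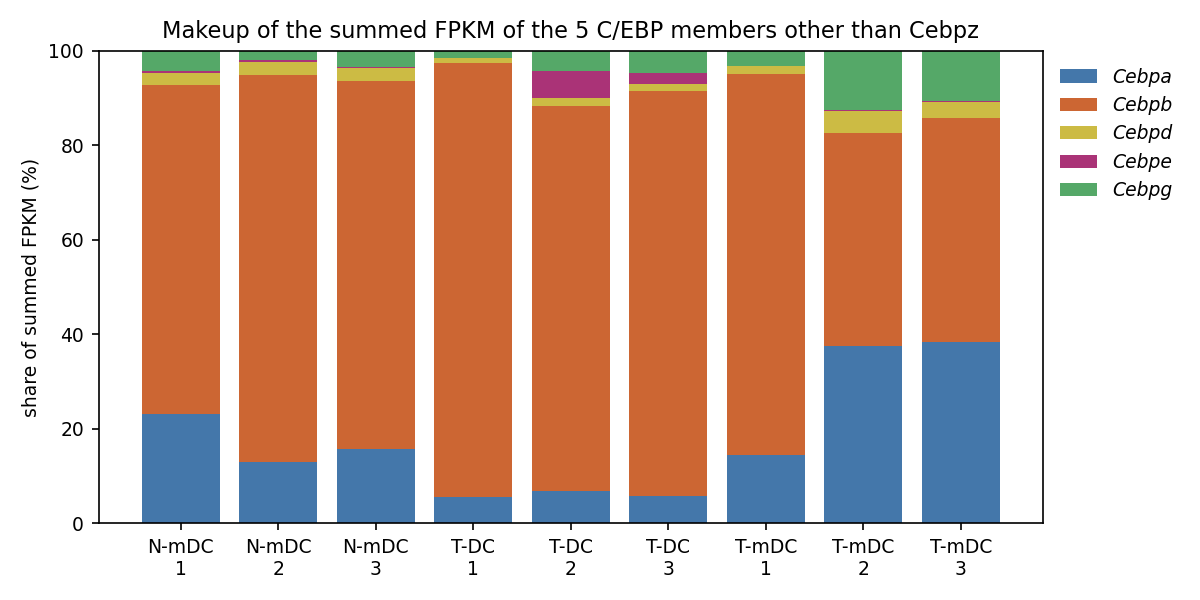
Share (%, vertical axis) of Cebpa, Cebpb, Cebpd, Cebpe and Cebpg in their summed FPKM in each of the 9 samples, as stacked bars from 0 to 100. Cebpb holds 81.7% or more in the 3 T-DC samples, and Cebpa holds 37.5% and 38.3% in T-mDC samples 2 and 3.

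Ratios of members within a sample do not depend on the scaling of that sample. Of the ratios computed, Cebpb/Cebpa, Cebpg/Cebpa, Cebpb/Cebpd and Cebpb/Cebpg, all were chosen after the values had been seen. The ratio of Cebpb to Cebpa, the inflammatory to the progenitor factor, was 3.003, 6.38 and 4.98 in N-mDC samples 1 to 3. T-DC samples 1 to 3 had ratios of 16.3, 12.2 and 15.1, and T-mDC samples 1 to 3 had 5.60, 1.20 and 1.24. T-DC sample 1, with several times more Cebpa and Cebpb than the other T-DC samples, had nearly their ratio. The mean log2 ratio was 3.85 ± 0.22 in T-DCs, 2.19 ± 0.55 in N-mDCs and 1.02 ± 1.27 in T-mDCs (SD, n = 3). T-DCs were higher than N-mDCs by 1.66 and higher than T-mDCs by 2.83 on the log2 scale, with no overlap in either (2-sided exact permutation p = 0.1 in both). With 3 samples against 3, 0.1 is the smallest p this test can give, and adjusted over the 12 tests of the ratios it was 0.24. The adjustment does not count the pairs of members that were not chosen, so these p-values add nothing to the lack of overlap.

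The ratio of Cebpg to its chromosome 7 neighbour Cebpa was 0.188, 0.145 and 0.225 in N-mDC samples 1 to 3. It was 0.280, 0.645 and 0.814 in the T-DC samples and 0.222, 0.336 and 0.277 in the T-mDC samples. T-DCs did not overlap N-mDCs (log2 difference 1.53, exact permutation p = 0.1, adjusted p = 0.24), but they overlapped T-mDCs (0.94, exact permutation p = 0.2, adjusted p = 0.343). For Cebpb to Cebpd, T-DCs (47.8 to 90.9) were above N-mDCs (27.5 to 29.6) and T-mDCs (9.57 to 46.4), with the same exact permutation p of 0.1 in both. Cebpb to Cebpg overlapped in all 3 comparisons.

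**Figure D5:**
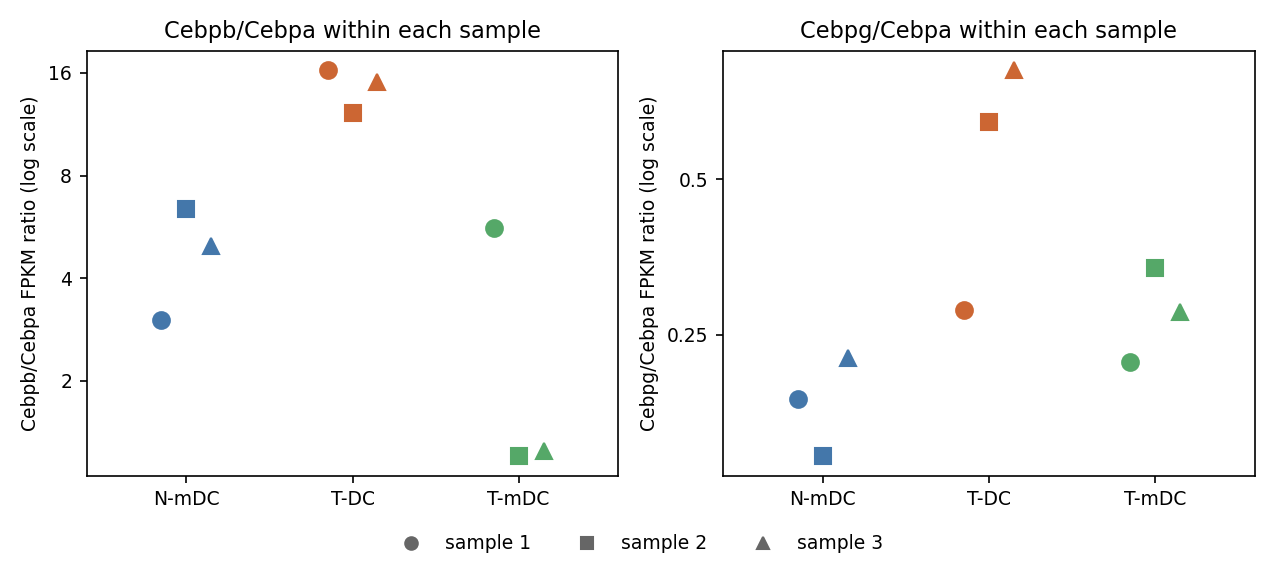
FPKM ratios (log scale) of Cebpb to Cebpa (left) and Cebpg to Cebpa (right) in samples 1, 2 and 3 of each group. The 3 T-DC samples lie between 12.2 and 16.3 in the left panel, above all N-mDC and T-mDC samples, and T-DC sample 1 overlaps T-mDCs in the right panel.

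A list of 15 partners and regulators of C/EBP proteins held 13 tested genes, of which 0 were called higher and 2 lower in T-DCs vs. N-mDCs. T-DCs vs. T-mDCs gave 0 higher and 1 lower, and T-mDCs vs. N-mDCs gave 0 in either direction. Of all tested genes, 16.4%, 14.2% and 2.21% were called in these comparisons. The median log2 fold change of the list was -0.155, 0.0491 and -0.150 in the same order. Batf3, a leucine zipper factor needed for cDC1 cells, was at 68.8, 82.0 and 47.7 FPKM in N-mDC samples 1 to 3, while T-DC samples had 23.1, 13.4 and 4.37 FPKM and T-mDC samples had 51.4, 81.7 and 76.8 FPKM. Its log2 fold change was -2.41 in T-DCs vs. N-mDCs (limma, adjusted p = 0.0147) and -2.50 in T-DCs vs. T-mDCs (adjusted p = 0.0142), called in 20 and 18 of 23 alternatives and lost without N-mDC sample 1 in the first and without T-mDC sample 2 or 3 in the second. Nfil3, a leucine zipper repressor, was called lower against N-mDCs at the edge of the threshold (log2 fold change -1.003, adjusted p = 0.04997), and was called in only 7 of 23 alternatives.

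Other tested partners and regulators were not called. Myb had the largest rise of the list in T-DCs vs. N-mDCs (log2 fold change 0.96, limma, adjusted p = 0.318). It was at 0.637, 7.90 and 10.7 FPKM in T-DC samples 1 to 3 and at 1.14 to 3.60 in the other groups. Batf had a log2 fold change of 1.11 in T-mDCs vs. N-mDCs (limma, adjusted p = 0.167). Atf4, the stress-response partner of C/EBPγ, had 196, 304 and 260 FPKM in N-mDC samples, whereas T-DC samples had 131, 221 and 185 and T-mDC samples 127, 144 and 140 (log2 fold change of T-DCs against N-mDCs -0.51, limma, adjusted p = 0.175). Ddit3, encoding the C/EBP-like inhibitor CHOP, was at 9.09 to 27.4 FPKM in T-DCs and 19.3 to 44.2 in N-mDCs. Spi1, encoding PU.1, which acts with C/EBPα in myeloid cells, was at 116 to 307 FPKM in T-DCs and 164 to 254 in N-mDCs. Trib1 and Trib2, of the pseudokinase family that controls C/EBP degradation, were tested and not called in any comparison. Their log2 fold changes in T-DCs vs. N-mDCs were -0.0011 (limma, adjusted p = 0.999) and -0.225 (adjusted p = 0.785). In T-DCs vs. T-mDCs they were 0.199 (adjusted p = 0.708) and 0.534 (adjusted p = 0.506). Trib3, of the same family, did not enter the test. Trib3 was at 0.394, 3.19 and 14.2 FPKM in T-DC samples 1 to 3, against at most 0.523 FPKM in the other groups. A role of Trib3 in C/EBP degradation was not tested.

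A list of 12 target genes of C/EBP factors in monocytes and macrophages held 11 tested genes, and its calls went both ways. Of all tested genes, 6.1% were called higher and 10.3% lower in T-DCs vs. N-mDCs. In T-DCs vs. N-mDCs, 0 were called higher and 2 lower, Il1b (log2 fold change -2.71, limma, adjusted p = 0.00206) and Ptgs2 (-4.49, adjusted p = 6.39e-04). Both encode inflammatory products, interleukin 1 beta and cyclooxygenase 2. Il1b was at 858, 638 and 603 FPKM in N-mDC samples 1 to 3, while T-DC samples had 147, 131 and 59.4 and T-mDC samples 159, 128 and 123. The lowest N-mDC sample was thus far above all samples from leukemic mice.

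In T-DCs vs. T-mDCs, 3 target genes were called higher and 2 lower, beside 5.44% and 8.79% of all tested genes. Hp, encoding the hemoglobin-binding protein haptoglobin, was at 186, 128 and 89.5 FPKM in T-DC samples 1 to 3 and at 32.4, 0.387 and 0.474 FPKM in T-mDC samples (log2 fold change 4.99, limma, adjusted p = 0.0284, called in 13 of 23 alternatives, with 0.0558 under the replicate block). It was at 5.62, 28.6 and 44.9 FPKM in N-mDC samples, below all T-DC samples, but that difference was not called (2.64, adjusted p = 0.154). Cd14, the lipopolysaccharide co-receptor (2.12, adjusted p = 0.0371), and Lyz2, the lysozyme of myeloid cells (1.87, adjusted p = 0.0425), were also called higher, and kept the call in 11 and 7 of 23 alternatives. Marco had a larger change than these (2.45, adjusted p = 0.0513) but was not called. Il6 (-3.09, adjusted p = 0.00197) and Ptgs2 (-3.83, adjusted p = 0.00177) were called lower. In T-mDCs vs. N-mDCs, where 2.21% of all tested genes were called, Cd14 (-3.58, adjusted p = 0.0189) and Il1b (-2.34, adjusted p = 0.0158) were lower. Il6 was higher there (2.06, adjusted p = 0.0243). These calls held in 17, 17 and 14 of 23 alternatives, and each was lost without T-mDC sample 2 or 3 and without N-mDC sample 2. The list had a median log2 fold change of -0.44 in T-DCs vs. N-mDCs, of 1.30 in T-DCs vs. T-mDCs and of -1.65 in T-mDCs vs. N-mDCs. The 6 red pulp macrophage genes, of which limma called 0 in each of the 3 comparisons, summed to 1537 to 3005 FPKM in N-mDCs, while T-DCs had 431 to 2425 and T-mDCs 282 to 1171, both leukemic groups with the highest in sample 1. The 5 monocyte genes summed to 50.3 to 179 FPKM in N-mDCs, where T-DCs had 45.7 to 61.2 and T-mDCs 13.2 to 36.8. In T-DCs vs. N-mDCs, limma called 2 of them lower, Ccr2 (-1.56, adjusted p = 0.0353) and Fcgr1 (-1.34, adjusted p = 0.0307). Fcgr1 was also called lower in T-mDCs vs. N-mDCs (-2.42, adjusted p = 0.0155). Of all tested genes, 10.3% and 1.52% were called lower in these comparisons. The part of macrophages and monocytes in the values of Cebpa, Cebpb and the targets was not tested.

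For each member, the genes with the most similar values were ranked by the Pearson r of log2(FPKM + 1) over the 9 samples, which share library and group and are no independent points. Cebpa was most like Sh3bgrl2 (r = 0.985), Enpp2 (0.984) and Tfec (0.983), which were between 0.296 and 3.95 FPKM. Cebpb was most like Mgst1, Dok3 and S1pr4, each with r = 0.984. Dok3, an adaptor protein of myeloid cells, was at 21.9, 50.5 and 34.6 FPKM in N-mDC samples 1 to 3, while T-DC samples had 168, 89.1 and 61.3 and T-mDC samples 50.4, 8.14 and 6.77, with sample 1 the highest in both leukemic groups as for Cebpb. Cebpd was most like Ms4a8a (r = 0.984), Pofut2 (0.972) and Cdk20 (0.971).

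Cebpe was most like Fam220a (r = 0.993), Ctsg (0.991), Cyp4b1-ps2 (0.991), Map2k3 (0.990) and Isca1 (0.989). Ctsg encodes the neutrophil protease cathepsin G, and Isca1 a protein of iron-sulfur cluster assembly. All 5 were far higher in T-DC samples 2 and 3 than in any other sample, Isca1 for example with 43.7 and 24.8 FPKM against 2.99 to 5.502, so these r values rest on 2 samples. Cebpg was most like Camkk2 (r = 0.986), Sstr4 (0.982) and Asph (0.980). Camkk2 encodes a calcium-dependent kinase. Asph was at 3.83, 3.61 and 4.01 FPKM in T-DC samples 1 to 3 and between 1.04 and 2.14 in all others. For Cebpz the closest genes were Gm45380 (r = 0.943), Tinf2 (0.940) and Trim30b (0.925), less alike than for the other members. Between members, Cebpe and Cebpz had an r of -0.656 and Cebpa and Cebpg, the chromosome 7 neighbours, an r of 0.108.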

How the data were processed

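The 3 sorted populations (3 samples each, grouped by the titles in the labels) were sequenced at Novogene. The authors deposited FPKM values for 54532 genes (build mm10 per the labels). The aligner, counter and strand setting are not given in the sources used here. Undoing the length and size scaling of FPKM gave whole reads to within 5.6e-05 of a read, 15360815 to 18440913 per sample, and these reads gave the Poisson intervals (95%), which cover counting error only.

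Genes with 1 FPKM or more in at least 3 samples (12746) were fitted as log2(FPKM + 1) in R 4.3.3 by limma 3.58.1, a linear model per gene with an empirical Bayes trend, with Benjamini-Hochberg adjustment and a threshold of 0.05. Adding 1 understates fold changes of low genes such as Cebpe. Ratios were compared with 2-sided exact permutation tests (SciPy 1.17.1). The fit was tested on simulated data.

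The genes named are the members, genes of written lists, the 3 genes (5 for Cebpe) with the highest r and annotated neighbours. The genes named from the lists are not always those with the largest changes. The members and lists were chosen with earlier results of these data known. Alternatives were another pseudocount, other filters and scalings, the 2 groups alone, array weights, no trend, a replicate block, voom on the reads, T-mDC samples 2 and 3 as their mean, an erythroid covariate and each sample left out, and, added after seeing the data, T-DC sample 1 as the only T-DC sample and those for ratios and lists.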

Additional observations from a re-analysis of the deposited data

How the results depend on the processing

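The number of members called was 1 in T-DCs vs. N-mDCs, 1 in T-DCs vs. T-mDCs and 0 in T-mDCs vs. N-mDCs. With array weights it was 4, 5 and 3, but this fit stopped before it converged and called 8485, 9923 and 3841 of 12746 genes. With the erythroid covariate, which in T-DCs vs. T-mDCs left 0 of 12746 genes called, it was 0 in all 3. With T-DC sample 1 as the only T-DC sample, which is then assumed to vary like the other groups, it was 0 in both T-DC comparisons. In T-DCs vs. T-mDCs it was also 0 with TPM and with T-mDC samples 2 and 3 as their mean. Leaving out each sample gave 1 to 2 members against N-mDCs (2 without T-DC sample 1) and 0 to 2 against T-mDCs (2 when T-DC or T-mDC sample 1 was left out, 0 when T-mDC sample 2 or 3 was). All other settings gave the same numbers of members. Calls over all 12746 genes moved too. Without T-DC sample 1 they were 5030 and 4475 in the T-DC comparisons, against 2096 and 1813 as fitted. In T-DCs vs. T-mDCs they were 540 with T-mDC samples 2 and 3 as their mean. Without T-mDC sample 2 they were 543 there, and without T-mDC sample 3 they were 541.

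Signs turned for members that were not called. In T-DCs vs. N-mDCs, log2 fold changes became 0.16 (erythroid covariate), 0.000291 (without T-DC sample 3) and 0.68 (T-DC sample 1 alone) for Cebpa, -0.17 (without N-mDC sample 1) and -0.14 (without T-DC sample 1) for Cebpd, and -0.20 (covariate) and -0.47 (T-DC sample 1 alone) for Cebpe. Against T-mDCs, they became -0.14 (TPM), -0.0387 (quantile normalization), -0.00245 (without T-mDC sample 2) and -0.32 (without T-DC sample 1) for Cebpa, -0.60 (covariate) for Cebpe, and 0.26 (covariate), 0.0387 (without T-DC sample 2) and 0.0870 (T-DC sample 1 alone) for Cebpz. In T-mDCs vs. N-mDCs, they became 0.40 (covariate) for Cebpe, and -0.0571 (array weights), -0.0339 (without N-mDC sample 1) and -0.0916 (without T-mDC sample 1) for Cebpg. With each sample left out in turn, these values ranged from -0.82 to 0.000291 (Cebpa) and from -0.17 to 0.44 (Cebpd) in the first comparison, from -0.32 to 0.50 (Cebpa) and from -0.18 to 0.0387 (Cebpz) in the second, and from -0.0916 to 0.20 (Cebpg) in the third. The cause was not tested. TPM moved the median of all genes from 0.0684 to -0.228 in T-DCs vs. T-mDCs and from 0.0272 to 0.235 in T-mDCs vs. N-mDCs, and voom moved the latter to 0.13. By TPM, Cebpg in T-DCs vs. T-mDCs was 0.77, and thus further above that median than by FPKM.

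Among target genes, 5 were called in T-DCs vs. T-mDCs as fitted, and 2 with no filter, with only these groups in the fit, with T-mDC samples 2 and 3 as their mean or without T-DC or T-mDC sample 2 or 3, and 8 without T-mDC sample 1. The labels do not say whether samples with the same replicate number are paired. Correlations of same-numbered samples ran from -0.47 to 0.27, and with 3 samples per group they cannot decide this. With the replicate block, the number of members called stayed at 1, 1 and 0, and 3 target genes were called in T-DCs vs. T-mDCs. Outside T-DC samples 2 and 3, Cebpe had at most 31 reads per sample. Its counting interval in N-mDC sample 2 lay above those of the other low samples, but T-mDCs vs. N-mDCs was not called. Cebpe was not tested with the stricter filter.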
